A study of Mus musculus with 9 samples.

Results

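B cell and germinal centre B cell marker genes were followed in RNA from sorted T follicular helper (Tfh) cells. The 31 genes were taken by symbol from a table of 54146 mouse genes, and all 31 were found there. Each had counts in at least 8 of 9 libraries and passed the filter on low counts. The libraries came from Peyer's patch cells sorted for CD4, CXCR5 and PD1. A mutant Tgfbr1 allele beside a normal one marks the 5 WT/mut libraries, numbered 6 to 10. The 4 WT libraries, numbered 1, 3, 4 and 5, are from littermates with the wild-type genotype. Tgfbr1 encodes a receptor subunit for TGF-beta. The labels do not describe the mutation and give no strain, age, sex, litter or sorting day. Whether every library stands for a separate animal is not stated, and the p-values therefore reflect library-to-library spread, which may be technical.

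A mature B cell carries an antigen receptor made of a membrane immunoglobulin and the signalling pair CD79A and CD79B. Antigen binding lets the kinases LYN, BLK, SYK and BTK act on the pair and on the adaptor BLNK. The cell then loads antigen fragments on MHC class II molecules and shows them to Tfh cells, which answer with help in the germinal centre. Mouse CD4 T cells are not known for MHC class II of their own, so these genes are usually read as marks of B cells, dendritic cells and macrophages.

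The counts summed to between 29488783 and 37342733 in the WT/mut libraries and to between 32977915 and 43872686 in the WT libraries. Tgfbr1 lay between 47.3 and 87.1 CPM, the counts scaled to a common library size, in WT/mut and between 49.96 and 98.5 CPM in WT libraries, and counts per gene do not separate its alleles. All 17 T and Tfh markers, among them Cd3e, Cd4, Cxcr5 and Pdcd1, were above 1 CPM in every library. Their sum was 13620 to 15328 CPM in WT/mut libraries, against 15881 to 17040 CPM in WT. WT/mut replicate 7 had 30143 genes with a count, against 17904 to 20264 in the other 8 libraries.

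Antigen receptor genes, the B lineage factor gene Spib and Ciita, the switch gene of MHC class II, tended to higher levels in the WT/mut libraries, and Mef2b, Fcrl1 and Cd72 to lower ones. With edgeR's quasi-likelihood test 0 of the 31 genes passed an adjusted p of 0.05, against 19 of 15521 tested genes, or 0.122%. At an unadjusted p under 0.05 there were 10 higher genes, where the background over all tested genes was 5.69%, and 3 lower genes, where it was 6.46% (12.2% in either direction). The 10 were Cd79a, Syk, Blnk, Cr2, Spib, Ciita, H2-Eb1, Nuggc, Basp1 and Gpr137b. DESeq2 called 2 higher genes, Ciita and Gpr137b, against 1.56% of the genes to which it gave an adjusted p, and 1 lower gene, Mef2b, against 1.3% (2.86% in either direction). Of the 31 log2 fold changes, WT/mut over WT, 28 were positive, against 50.2% of all tested genes. Their median was 0.67, against 0.00 for all tested genes. The genes were chosen with such results known, so these counts describe the list and do not test it. The shares of all genes given here are also the background for counts in the other lists below. In sorted cells in bulk, more cells of a type and more RNA per cell cannot be told apart.

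Single libraries set the size of these counts. The number of higher genes at an unadjusted p under 0.05 was 19 without WT replicate 4 and 4 without WT/mut replicate 9. It was 6 without WT/mut replicate 6, 5 without WT replicate 1, 5 without WT replicate 3 and 6 without WT replicate 5. Lower genes numbered 1 without WT/mut replicate 7, 1 without WT replicate 1 and 1 without WT replicate 5. The background shares given above belong to the fit with all 9 libraries, and none were counted with a library left out. With edgeR 0 of the 31 genes passed over all genes in any of the 9 fits that left out 1 library.

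**Figure D1:**
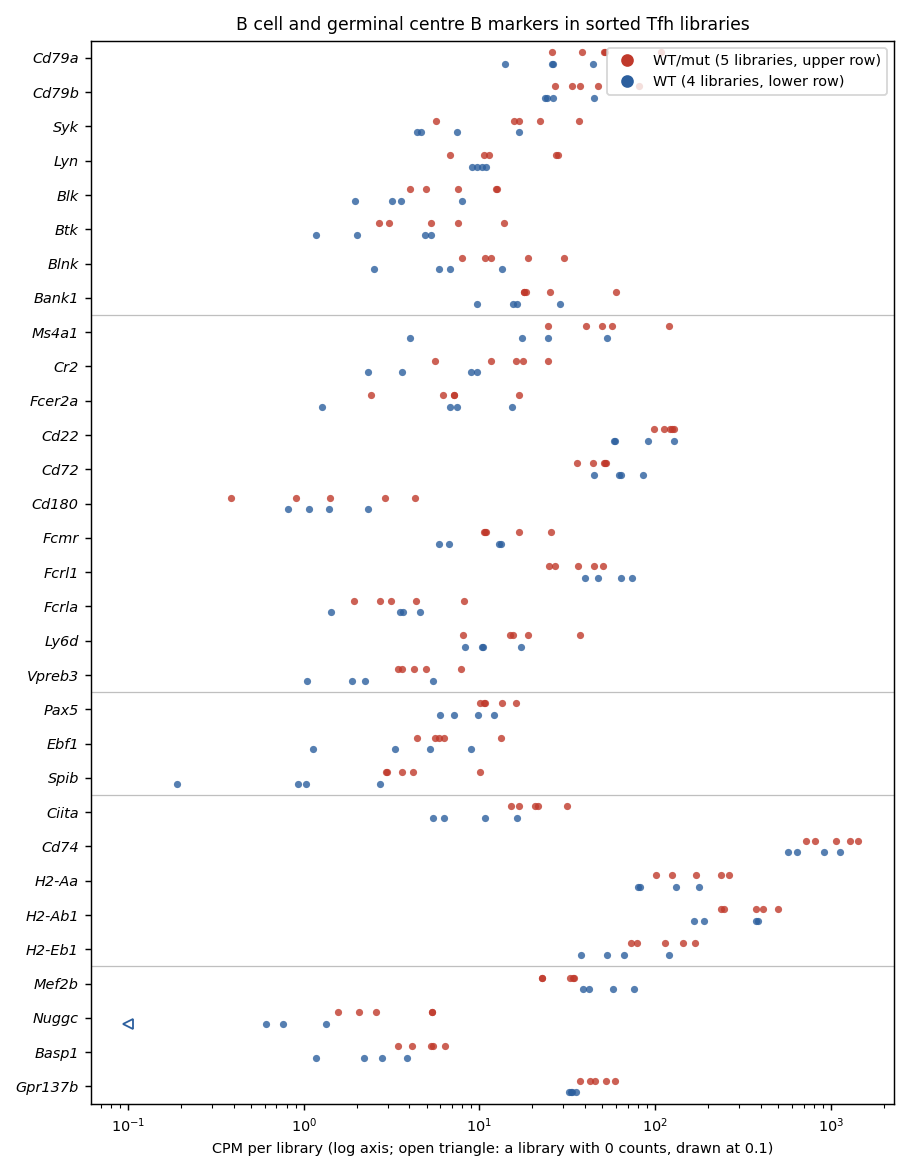
CPM of each of the 31 genes in each library on a log axis, with WT/mut libraries (red, n = 5) above WT libraries (blue, n = 4) and lines between the role groups. The groups overlap for 27 genes, while Spib, Nuggc and Gpr137b lie higher and Mef2b lower in WT/mut.

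**Figure D2:**
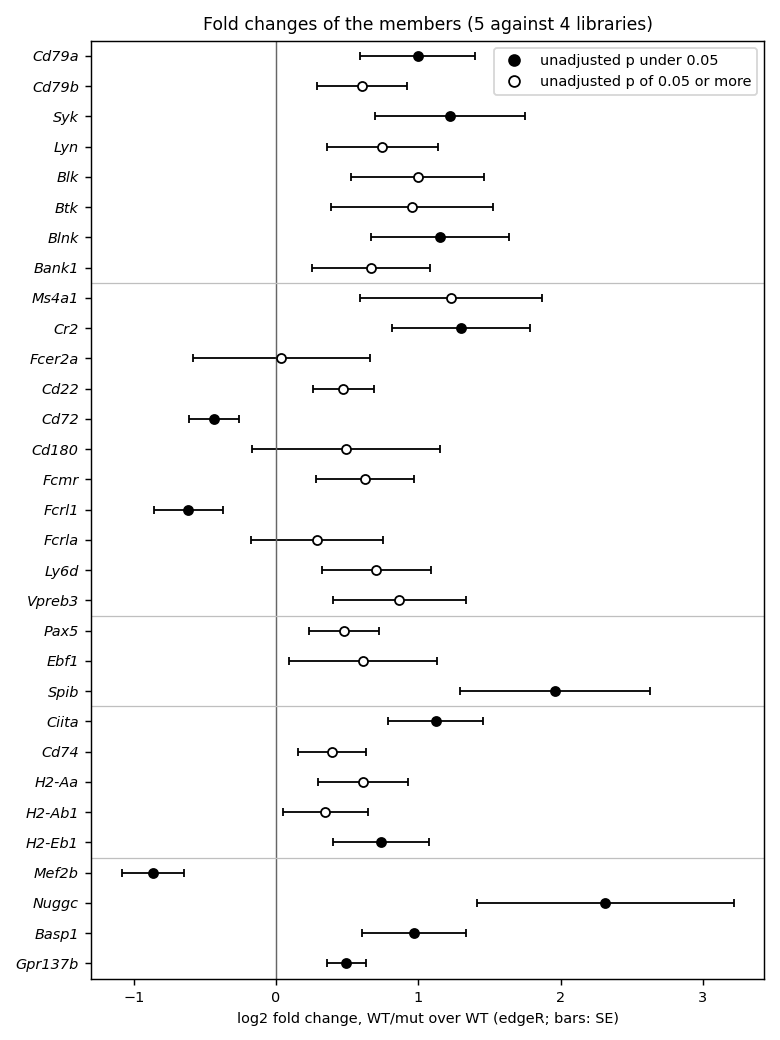
Log2 fold change of each gene, WT/mut over WT, with its SE (edgeR, 5 against 4 libraries). Filled points have an unadjusted p under 0.05, and 28 of the 31 points lie right of 0.

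All 8 antigen receptor chains and signalling genes had positive fold changes, with a median of 0.97, and 3 had an unadjusted p under 0.05. Cd79a (ENSMUSG00000003379.7, chromosome 7, 24897381 to 24902197 on GRCm38) encodes a receptor chain that carries the signalling motif. It was measured at 50.8, 25.8, 52.1, 108 and 38.4 CPM in WT/mut replicates 6 to 10, against 14.1, 26.2, 44.3 and 25.9 CPM in WT replicates 1, 3, 4 and 5. Replicate 9 was far above the other WT/mut libraries, WT replicate 1 was lowest of all, and the groups overlapped. The fold change was 0.99 ± 0.40 (SE) on the log2 scale, with an unadjusted p of 0.0315 and an adjusted p of 0.371 by edgeR.

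Its partner Cd79b (chromosome 11, 106311341 to 106314762) stood at 47.6, 26.8, 33.9, 81.0 and 37.3 CPM in WT/mut, against 23.7, 26.4, 44.9 and 24.2 CPM in WT libraries. The order of the libraries was much like that of Cd79a, with WT replicate 4 apart from the other WT libraries. Its fold change was 0.60 ± 0.31 (edgeR adjusted p = 0.456). Syk, the kinase that docks on the phosphorylated pair, had 22.0, 16.8, 15.7, 37.0 and 5.64 CPM in WT/mut, against 7.41, 4.65, 16.9 and 4.39 CPM in WT libraries. WT/mut replicate 10 fell among the low WT libraries, and WT replicate 4 among the WT/mut ones (1.22 ± 0.52, edgeR adjusted p = 0.390). Blnk, the adaptor that links SYK to the next enzymes, had 18.9, 7.94, 11.7, 30.4 and 10.7 CPM in WT/mut, against 2.501, 6.76, 13.4 and 5.91 CPM in WT libraries (1.152 ± 0.49, edgeR adjusted p = 0.385). WT replicate 4 alone kept the groups from standing apart.

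The other 4 signalling genes did not reach an unadjusted p of 0.05. Blk and Lyn, kinases of the Src family, were at 1.00 ± 0.47 and 0.75 ± 0.39. Btk, the kinase downstream of SYK, was at 0.95 ± 0.57, and the scaffold gene Bank1 at 0.67 ± 0.41. Bank1 had 60.2 CPM in WT/mut replicate 9, between 17.8 and 25.3 CPM in the other WT/mut libraries, and 9.72, 15.6, 28.7 and 16.3 CPM in WT libraries. Its fold change was 0.19 without WT/mut replicate 9.

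Another 21 genes of antigen receptor signalling were taken as a list. With edgeR 0 passed over all genes, 5 were higher and 0 lower at an unadjusted p under 0.05, and 15 of 21 fold changes were positive (median 0.26). The 4 of lowest p were Fcgr2b (1.18 ± 0.36, adjusted p = 0.278), Plcg2 (1.19 ± 0.40, adjusted p = 0.312), Pik3ap1 (0.91 ± 0.32, adjusted p = 0.326) and Siglecg (1.03 ± 0.41, adjusted p = 0.368). Fcgr2b encodes an inhibitory Fc receptor, Plcg2 the phospholipase that BTK activates, Pik3ap1 an adaptor for PI3-kinase and Siglecg an inhibitory lectin. Genes of the pathway that T cells share, such as Vav1 (-0.02 ± 0.08), Prkcb (-0.02 ± 0.10) and Ptpn6 (0.01 ± 0.11), were close to 0. These 3 were picked after their values were seen.

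Among 11 coreceptor and other surface genes, 9 fold changes were positive. The group had 1 higher and 2 lower genes at an unadjusted p under 0.05. Cr2 (chromosome 1, 195136811 to 195176716) encodes complement receptor 2, which is carried by B cells and follicular dendritic cells. It was measured at 16.1, 11.7, 17.8, 24.6 and 5.59 CPM in WT/mut, against 3.61, 2.33, 8.99 and 9.65 CPM in WT libraries. Only WT/mut replicate 10 overlapped with WT, and the fold change was 1.302 ± 0.49 (unadjusted p = 0.0213, edgeR adjusted p = 0.340). The 7 follicular dendritic and stromal markers in the table summed to 33.7 to 46.1 CPM in WT/mut libraries, against 29.9 to 42.2 CPM in WT, mostly Mfge8, and 2 of the 7, Madcam1 and Clu, were higher at an unadjusted p under 0.05. Their part in the Cr2 values was not tested.

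Ms4a1, which encodes CD20, had 56.7, 24.7, 49.9, 120 and 40.6 CPM in WT/mut, against 4.02, 17.5, 53.3 and 24.6 CPM in WT libraries. WT replicate 1 was far below all others and WT replicate 4 was above 3 of the 5 WT/mut libraries. The fold change of 1.23 ± 0.64 had an edgeR adjusted p of 0.457, and it ranged from 0.80 without WT/mut replicate 9 to 1.92 without WT replicate 4. Fcer2a encodes CD23, which is high on resting follicular B cells. It stood at 7.13, 2.42, 7.16, 16.8 and 6.22 CPM in WT/mut, against 1.27, 6.81, 15.4 and 7.502 CPM in WT libraries. The groups covered the same range, with a fold change of 0.04 ± 0.62 (edgeR adjusted p = 0.986), and 3 fits that left out 1 library gave a negative sign.

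Of the remaining positive surface genes, Fcmr (the IgM Fc receptor), Ly6d, Vpreb3, Cd180 and Fcrla lay between 0.29 and 0.87, with unadjusted p between 0.0905 and 0.547. Cd180 was near the low end of detection, at 0.384 to 4.31 CPM in WT/mut libraries, against 0.815 to 2.33 CPM in WT. It shares 182 exon bases with Mast4 on the opposite strand. Cd22, an inhibitory lectin of B cells, was at 97.9 to 128 CPM in WT/mut libraries, against at 58.7 to 128 CPM in WT (0.47 ± 0.22, edgeR adjusted p = 0.411). Its WT/mut libraries spread little, and WT replicate 3 lay among them. Cd22 shares 479 exon bases with Gm29439 on the opposite strand.

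Cd72 and Fcrl1 had negative fold changes. Cd72 (chromosome 4, 43446462 to 43454628), an inhibitory coreceptor gene, had 52.6, 36.1, 51.0, 51.8 and 44.4 CPM in WT/mut, against 84.9, 44.7, 62.0 and 63.9 CPM in WT libraries. WT replicate 1 was highest, WT replicate 3 lay among the WT/mut libraries, and the fold change was -0.44 ± 0.18 (unadjusted p = 0.0319, edgeR adjusted p = 0.371). Of its 3422 exon bases, 1423 are shared with Tesk1 on the opposite strand. Because the library kit does not mark strand, reads there cannot be assigned with certainty. Tesk1 itself stood at -0.27 ± 0.17 (edgeR adjusted p = 0.524).

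Fcrl1 (chromosome 3, 87376387 to 87402934), an Fc receptor-like gene known from B cells, had 36.5, 25.0, 26.9, 50.7 and 44.9 CPM in WT/mut, against 74.0, 40.03, 47.4 and 64.1 CPM in WT libraries. The groups overlapped through WT/mut replicates 9 and 10 (-0.62 ± 0.24, unadjusted p = 0.0260, edgeR adjusted p = 0.354). Among WT libraries Fcrl1 was highest in replicate 1, where Cd79a was lowest. Replicates 3 and 5 were nearly equal in Cd79a (26.2 and 25.9 CPM) but had the lowest and the second highest Fcrl1 of the WT libraries.

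Among the lineage factors, Spib (ENSMUSG00000008193.13, chromosome 7, 44525993 to 44532071) encodes Spi-B, an ETS factor of B cells and plasmacytoid dendritic cells. Its 250 bases before the RefSeq start are shown because its groups did not overlap. In all the sequences printed here, from RefSeq on GRCm38.p6, capitals mark matches to a short motif, read 5′ to 3′ on the gene's strand. In Spib they are 2 overlapping matches to CCCNNGGG, the core of sites for the B lineage factor EBF1, within chr7:44532072-44532321 (minus strand).
Spib: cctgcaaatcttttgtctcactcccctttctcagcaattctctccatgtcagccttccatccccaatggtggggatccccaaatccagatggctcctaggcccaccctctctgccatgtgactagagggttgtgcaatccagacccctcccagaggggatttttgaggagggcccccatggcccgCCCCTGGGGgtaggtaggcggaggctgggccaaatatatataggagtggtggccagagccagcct

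This core, which reads as its own reverse complement, is present in 11.8% of 32851 RefSeq promoters of the same length. Of the 31 genes, 21 had a promoter there, and Spib, Bank1 and Cd22 held the core.

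Spib was measured at 3.61, 2.95, 4.19, 10.1 and 2.99 CPM in WT/mut, against 0.190, 1.03, 2.74 and 0.923 CPM in WT libraries. All WT/mut libraries were above all WT libraries, with a narrow gap between WT/mut replicate 7 and WT replicate 4. The fold change was 1.96 ± 0.66 (unadjusted p = 0.0130, edgeR adjusted p = 0.312), and it ranged from 1.498 without WT/mut replicate 9 to 2.72 without WT replicate 4. DESeq2 gave an adjusted p of 0.0714. Separate ranges in this direction were found for 2.09% of all tested genes.

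Pax5, the factor that fixes B cell identity, had 10.1, 13.5, 10.7, 16.1 and 10.7 CPM in WT/mut, against 5.98, 9.78, 12.1 and 7.18 CPM in WT libraries (0.48 ± 0.24, edgeR adjusted p = 0.451). WT replicate 4 lay among the WT/mut libraries. On the opposite strand Pax5 shares 636 exon bases with 5730488B01Rik and 125 with Gm12462. Ebf1, which acts with Pax5 early in the lineage, had 13.3 CPM in WT/mut replicate 9, 4.41 to 6.31 CPM in the other WT/mut libraries and 1.13 to 8.90 CPM in WT (0.61 ± 0.52, edgeR adjusted p = 0.634).

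Of 18 other B lineage genes, 13 had positive fold changes (median 0.36). With edgeR none (0) passed. An unadjusted p under 0.05 was found for 6 higher genes and 1 lower gene. The lower gene had the lowest p of the list. It was Cd38, an ectoenzyme also found on T cells, which averaged 88.3 ± 11.2 CPM in WT/mut libraries, against 138 ± 28 CPM in WT libraries (SD, n = 5 and 4), with no overlap (-0.64 ± 0.15, edgeR adjusted p = 0.149). Next came Fcgr2b, Pou2af1 (0.63 ± 0.22, adjusted p = 0.324), a coactivator of octamer-binding factors, and Siglecg.

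All 5 MHC class II genes had positive fold changes (median 0.61). Per kilobase of exon, Cd74 and H2-Ab1 were the most abundant of the 31 genes. On this scale Cd74, the chaperone that holds the groove until loading, was at 633 ± 177 CPM in WT/mut libraries, against 482 ± 152 CPM in WT (SD, n = 5 and 4). On the same scale H2-Ab1 was at 138 ± 43 CPM in WT/mut libraries, against 108 ± 45 CPM in WT, and Cd79a at 37.8 ± 21.6 CPM in WT/mut libraries, against 18.9 ± 8.6 CPM in WT. The T cell gene Cd3e was at 63.4 ± 3.1 CPM per kilobase in WT/mut and 61.5 ± 9.7 in WT.

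Ciita encodes the coactivator without which class II genes stay silent in B cells. It had 15.2, 20.7, 21.5, 31.4 and 16.8 CPM in WT/mut, against 5.45, 6.28, 16.4 and 10.7 CPM in WT libraries. WT replicate 4 alone fell within the WT/mut range. The fold change was 1.12 ± 0.34 (unadjusted p = 0.00631, edgeR adjusted p = 0.274). DESeq2 called it (adjusted p = 0.0437), and over the other 16 alternatives the lowest adjusted p was 0.104 and the highest 0.796. Ciita shares 329 exon bases with Dexi on the opposite strand, which stood at -0.20 ± 0.20 (edgeR adjusted p = 0.691).

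The α and β chain genes of the class II molecules lie together on chromosome 17. H2-Aa (34282744 to 34287823) and H2-Eb1 (34305867 to 34316674) are shown with the 250 bases before their RefSeq starts, because class II promoters are known for a shared X and Y box that bring in the CIITA complex. Capitals mark ATTGG, the core of the Y box, or its reverse complement CCAAT, and AACNGATG, a core of the X box, or its reverse complement CATCNGTT. The windows are chr17:34287824-34288073 (minus strand) and chr17:34305617-34305866 (plus strand).
H2-Aa: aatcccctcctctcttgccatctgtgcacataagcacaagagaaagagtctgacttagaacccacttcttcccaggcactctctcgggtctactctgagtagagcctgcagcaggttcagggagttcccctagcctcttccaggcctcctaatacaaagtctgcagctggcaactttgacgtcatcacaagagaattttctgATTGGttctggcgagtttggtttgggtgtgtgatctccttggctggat
H2-Eb1: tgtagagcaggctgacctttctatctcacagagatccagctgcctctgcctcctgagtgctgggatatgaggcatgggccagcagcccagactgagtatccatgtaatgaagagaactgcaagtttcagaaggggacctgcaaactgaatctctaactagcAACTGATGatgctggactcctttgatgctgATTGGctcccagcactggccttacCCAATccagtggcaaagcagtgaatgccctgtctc

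H2-Eb1 held an X box core from base 89 to base 82 before the start and a Y box core from base 59 to base 55. H2-Aa held a Y box core from base 48 to base 44, and these letters of the X box were not in its window. The Y box core was present in 33.8% of the 32851 promoters, the X box core in 1.98% and both in 0.688%. Of the 21 genes with a promoter, H2-Eb1 was the 1 that held both.

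H2-Eb1 had 168, 79.3, 114, 144 and 72.8 CPM in WT/mut, against 53.0, 66.4, 120 and 38.0 CPM in WT libraries. WT replicate 4 lay among the WT/mut libraries (0.74 ± 0.34, unadjusted p = 0.0498, edgeR adjusted p = 0.410). H2-Aa had 264.5, 125, 170, 236 and 102 CPM in WT/mut, against 131, 82.3, 177 and 79.8 CPM in WT libraries (0.61 ± 0.31, edgeR adjusted p = 0.455). WT replicates 1 and 4 both lay inside the WT/mut range. H2-Ab1 (34257689 to 34269419) had 498, 238, 373, 412 and 247 CPM in WT/mut, against 385, 189, 372 and 166 CPM in WT libraries (0.35 ± 0.30, edgeR adjusted p = 0.637). Cd74 had 1425, 724, 1070, 1281 and 815 CPM in WT/mut, against 910, 638, 1120 and 567 CPM in WT libraries (0.39 ± 0.24, edgeR adjusted p = 0.507). For all 4 of these genes WT/mut replicate 6 was the highest library and WT replicate 5 the lowest.

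Other genes of class II presentation did not share a direction. Of 13, 6 had positive and 7 negative fold changes (median -0.15), and with edgeR 0 passed over all genes, with 1 higher and 3 lower at an unadjusted p under 0.05. H2-Ob, a chain of the molecule that restrains peptide loading, averaged 53.7 ± 8.6 CPM in WT/mut libraries, against 76.1 ± 13.9 CPM in WT libraries (SD, n = 5 and 4). The ranges met without overlap, from 41.4 to 63.1 CPM in WT/mut libraries, against from 63.2 to 94.0 CPM in WT. Its fold change was -0.50 ± 0.15 (edgeR adjusted p = 0.278). Cd86, a costimulatory ligand gene, stood at 0.83 ± 0.28 (adjusted p = 0.312), Rfxap, a subunit of the X box binding complex, at -0.44 ± 0.16 (adjusted p = 0.329), and Cd83, an activation marker, at -0.48 ± 0.19 (adjusted p = 0.350).

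The 4 germinal centre B cell genes all had an unadjusted p under 0.05, in both directions. Mef2b encodes a transcription factor known in human germinal centre B cells as an activator of BCL6. The 250 bases before its RefSeq start (chr8:70152511-70152760, plus strand) are shown because it was the member whose groups stood apart in the lower direction. Capitals mark the octamer ATTTGCAT on the reverse strand, ATGCAAAT, known from immunoglobulin promoters.
Mef2b: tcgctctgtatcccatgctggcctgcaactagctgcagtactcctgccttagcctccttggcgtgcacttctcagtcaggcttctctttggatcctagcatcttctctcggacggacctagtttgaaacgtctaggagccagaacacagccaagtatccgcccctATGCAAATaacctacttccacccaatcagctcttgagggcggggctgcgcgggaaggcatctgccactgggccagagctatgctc

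The octamer was found in 1.60% of the 32851 promoters and in those of Mef2b, Blnk and Vpreb3 among the 21. A purine-rich ETS core, GAGGAAG or CTTCCTC, was searched as well. It was found in 10.6% of all promoters and in those of Cd72 and Fcrl1.

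Mef2b (ENSMUSG00000079033.10) had 32.9, 22.6, 34.6, 22.8 and 34.1 CPM in WT/mut, against 76.0, 39.0, 57.4 and 41.8 CPM in WT libraries. Every WT/mut library was below every WT library, a pattern shown in this direction by 2.38% of all tested genes. The fold change was -0.87 ± 0.22 (unadjusted p = 0.00209, edgeR adjusted p = 0.207). DESeq2 called it (adjusted p = 0.0184), and over the other 16 alternatives the adjusted p lay between 0.163 and 0.711. It shares 62 exon bases with Borcs8 on the same strand in GENCODE. Borcs8 was at -0.08 ± 0.11 (edgeR adjusted p = 0.795).

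Gpr137b, a lysosomal membrane protein gene (chromosome 13, 13357620 to 13394014), had 59.1, 37.2, 45.7, 52.4 and 42.6 CPM in WT/mut, against 33.1, 35.6, 32.4 and 33.5 CPM in WT libraries. The WT libraries lay close together and below all WT/mut libraries. The fold change of 0.49 ± 0.14 had an unadjusted p of 0.00444 and an edgeR adjusted p of 0.255, and DESeq2 called it (adjusted p = 0.0317), with 0.197 to 0.470 over the other 16 alternatives. Nuggc, which encodes a nuclear GTPase of germinal centre B cells, had 178, 50, 202, 58 and 94 counts in WT/mut, against 24, 0, 21 and 58 counts in WT libraries. The ranges in CPM were 1.57 to 5.36 in WT/mut and 0 to 1.34 in WT, with no overlap but low counts (2.31 ± 0.90, unadjusted p = 0.0260, edgeR adjusted p = 0.354). Basp1, a membrane-bound signalling protein gene, had 5.44, 3.42, 4.11, 6.34 and 5.31 CPM in WT/mut, against 1.17, 2.21, 3.87 and 2.79 CPM in WT libraries (0.97 ± 0.37, unadjusted p = 0.0228, edgeR adjusted p = 0.340). WT replicate 4 overlapped with the lowest WT/mut library.

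In all, the ranges stood apart for 3 higher genes and 1 lower gene of the 31, with 4.46% of all tested genes as background for both directions. Without WT replicate 4 this number was 14. The share of all tested genes was not counted in that fit, and fewer libraries make separate ranges more frequent.

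Of 10 other germinal centre B cell genes, 7 had positive fold changes (median 0.25). With edgeR 0 passed over all genes, and 1 was higher at an unadjusted p under 0.05. Gcsam (1.69 ± 0.90, adjusted p = 0.461), Rgs13 (1.06 ± 0.59, adjusted p = 0.479) and Mybl1 (1.66 ± 1.05, adjusted p = 0.522) were among those of lowest p. S1pr2, a receptor gene that Tfh cells share with germinal centre B cells, stood at -0.04 ± 0.12 and was picked after its value was seen.

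The 31 genes did not follow 1 order over the libraries. In 21 of them WT/mut replicate 9 was the highest of the 9 libraries, which held for 14.7% of all tested genes. In 5 it was WT/mut replicate 6, namely Cd74, H2-Aa, H2-Ab1, H2-Eb1 and Gpr137b (6.58% of all tested genes). In 3 it was WT replicate 1, namely Cd72, Fcrl1 and Mef2b (20% of all tested genes). At the other end, WT replicate 1 was the lowest of the 9 libraries for 15 genes (20.8% of all tested genes). Within the WT group, replicate 4 was highest for 20 genes (25.9% of all tested genes). Within the WT/mut group, replicate 7 was lowest for 18 genes (21.7% of all tested genes).

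**Figure D3:**
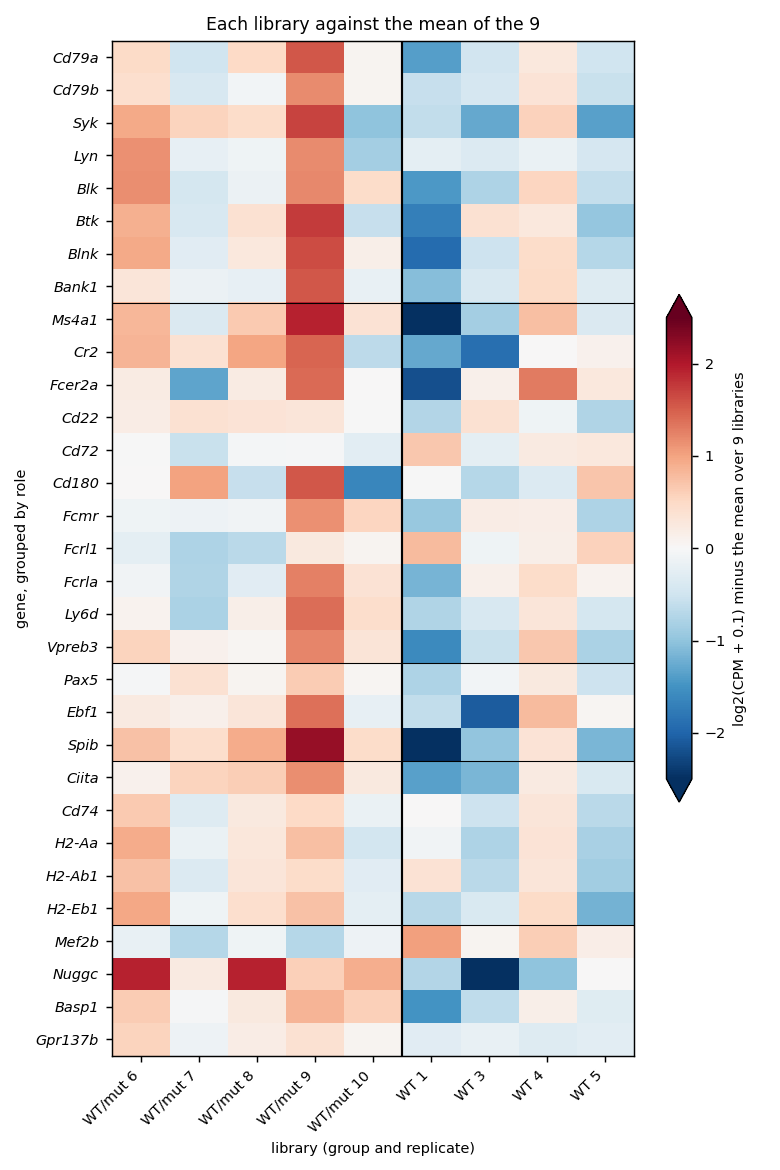
Each gene in each library as log2(CPM + 0.1) minus its mean over the 9 libraries, with WT/mut libraries left of the line and WT libraries right of it. WT/mut replicate 9 is highest for 21 of 31 genes, and Cd72, Fcrl1 and Mef2b are highest in WT replicate 1.

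Set against Cd79a in the same library, most of the receptor genes kept their proportion better than their level. Over the 9 libraries Blnk spanned 12.1-fold, and its ratio to Cd79a spanned 2.09-fold. Blk spanned 6.44-fold and its ratio 2.58-fold. Ms4a1 per Cd79a lay between 0.956 and 1.11 in WT/mut, against 0.286 in WT replicate 1 and 0.669 to 1.203 in the other WT libraries. Of the 29 other genes with a count in every library, 19 (65.5%) spanned less as a ratio to Cd79a than as a level, against 7.03% of 13895 tested genes. These shares are not on a par. Cd79a itself spanned 7.68-fold, so a gene with a small span of its own can only span more as a ratio. The median own span was 5.41-fold for the 29 genes and 1.99-fold for all tested genes. Genes measured in 1 library also share its depth and its cells, so these shares describe the libraries and are no test.

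By this measure the lower genes spanned more as a ratio to Cd79a than by themselves, and the class II genes were divided. For Cd72 and Cd74, whose own spans were small beside the 7.68-fold of Cd79a, no other outcome was possible. Mef2b spanned 3.36-fold by itself and 25.6-fold as a ratio to Cd79a, Cd72 2.35-fold and 12.6-fold, and Fcrl1 2.96-fold and 11.2-fold. In WT replicate 1 Fcrl1 was 5.26 times Cd79a, while in WT/mut replicate 9 it was 0.469 times. H2-Eb1 spanned 4.43-fold and 2.83-fold and Ciita 5.77-fold and 3.34-fold, so that both spanned less as a ratio. Cd74 spanned 2.51-fold and 5.46-fold, H2-Aa 3.31-fold and 4.27-fold and H2-Ab1 3.01-fold and 7.18-fold, so that these spanned more as a ratio. H2-Ab1 was 3.82 to 9.80 times Cd79a in WT/mut libraries, against 27.4 times in WT replicate 1 and 6.40 to 8.41 times in the other WT libraries. Myeloid and dendritic cell markers were measured in the same libraries. Their sum was 538, 366, 350, 210 and 184 CPM in WT/mut replicates 6 to 10. In WT replicates 1, 3, 4 and 5 it was 389, 177, 321 and 183 CPM. The class II genes, Ciita among them, summed to 2371, 1187, 1749, 2104 and 1254 CPM in WT/mut replicates 6 to 10. In WT replicates 1, 3, 4 and 5 they summed to 1485, 983, 1806 and 861 CPM. Whether the 2 sums go together was not tested.

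**Figure D4:**
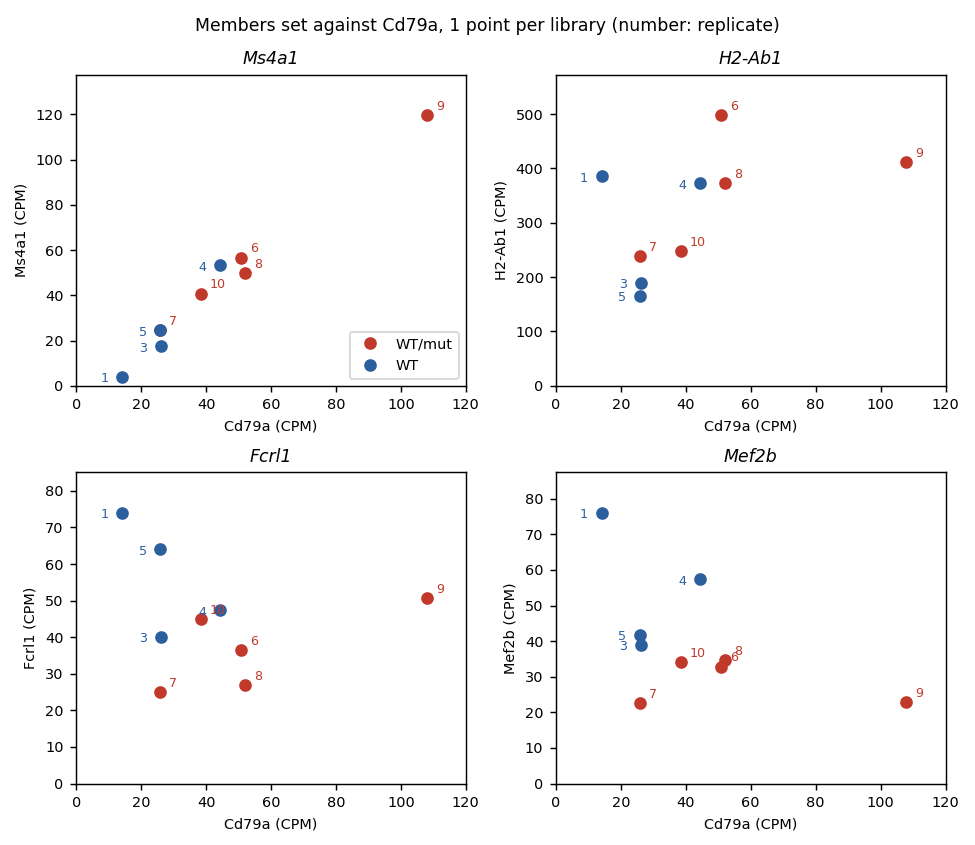
CPM of Ms4a1, H2-Ab1, Fcrl1 and Mef2b against CPM of Cd79a, with 1 point per library and its replicate number (WT/mut red, WT blue, with WT/mut replicate 7 under WT replicate 5 for Ms4a1). Ms4a1 largely orders with Cd79a, while Fcrl1 and Mef2b do not. H2-Ab1 is furthest out of the Cd79a order in WT replicate 1.

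Markers of other cells outside the gate were present too. The 17 myeloid and dendritic cell markers, of which Cst3 and Lyz2 were the most abundant on average, summed to 184 to 538 CPM in WT/mut libraries, against 177 to 389 CPM in WT. With edgeR 0 of the 13 tested passed, and 0 had an unadjusted p under 0.05. By p their first 4 were C1qa (1.05 ± 0.56), Xcr1 (1.16 ± 0.65), Fcer1g (0.96 ± 0.54) and Cst3 (-0.24 ± 0.14), with adjusted p between 0.465 and 0.501. The dendritic cell genes Flt3, Clec9a and Siglech and the neutrophil gene S100a8 did not pass the filter on low counts. Plasma cell markers (10) summed to 422 to 656 CPM in WT/mut libraries, against 358 to 422 CPM in WT. Their leading gene was Jchain (2.86 ± 0.53, adjusted p = 0.0904), and 3 of the 8 tested were higher at an unadjusted p under 0.05, with 1 called by DESeq2. The 9 epithelial markers summed to 28.8 to 211 CPM in WT/mut libraries, against 39.96 to 425 CPM in WT, with WT replicate 4 highest. The 5 red cell genes summed to 401 to 870 CPM in WT/mut libraries, against 98.5 to 282 CPM in WT, and with edgeR 0 passed while all 5 were higher at an unadjusted p under 0.05. All 5 had separate ranges, and DESeq2 called all 5. The part of these cells in the values of the 31 genes was not tested.

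The 12 immunoglobulin constant genes summed to 2182 to 3010 CPM in WT/mut libraries, against 1929 to 2475 CPM in WT. Of the 11 tested, 8 had positive fold changes (median 1.63). With edgeR 0 passed, 7 were higher and 0 lower at an unadjusted p under 0.05, 3 had separate ranges, and DESeq2 called 4 higher. Over all tested genes 5.69% were higher at that p, and 2.09% had separate, higher ranges. DESeq2 called 1.56% of its genes higher. Most of this sum was Ighm, the IgM isotype gene, with 1438 to 1959 CPM in WT/mut libraries, against 1740 to 2313 CPM in WT (-0.17 ± 0.12, edgeR adjusted p = 0.550). Like Mef2b, Ighm was highest in WT replicate 1, where Cd79a was lowest. Its lowest library was WT/mut replicate 9, where Cd79a was highest. Per kilobase of exon, Ighm averaged 915 (WT/mut) and 1032 (WT) CPM, far above Cd79a and also above Cxcr5 (355 and 395). The cells that gave this Ighm RNA were not tested. Ighd, which resting B cells make with Ighm, stood at -0.08 ± 0.36 (adjusted p = 0.947). The genes of lowest p were the switched isotype Igha (3.29 ± 0.66, adjusted p = 0.106), the light chain genes Igkc (1.63 ± 0.45, adjusted p = 0.254) and Iglc1 (4.30 ± 1.2001, adjusted p = 0.260), and Ighg3 (3.45 ± 1.03, adjusted p = 0.276). Iglc1 was at 125 and 29.0 CPM in WT/mut replicates 6 and 9, and at 3.85 to 4.11 CPM in the other WT/mut libraries. In WT libraries it was at 1.17 to 2.47 CPM. Ighg3 was at 39.6 CPM in WT/mut replicate 9, and at 0.753 to 8.63 CPM in the other WT/mut libraries. Its WT libraries lay between 0.317 and 1.83 CPM, so the groups overlapped. Immunoglobulin segments share sequence, so their estimated counts are uncertain.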

How the data were processed

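The authors deposited expected counts, estimated for each gene and so not always whole, with column totals that differ. The submitters' processing notes name RSEM 1.3.0, STAR 2.5.3, cutadapt 2.10, DESeq2 and the build mm10, without roles. Per the labels' protocols, a SMART-Seq kit that does not mark strand was run on 300 pg of RNA from sorted cells. Between 11.1% and 18.3% of the values in a library were not whole, and all were rounded. For the gene annotation the sources used here give no release. GENCODE M21 (GRCm38) gave positions and exon lengths. Among the 31 genes, 27 matched it with their version number and all 31 without it.

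The edgeR 4.0.16 quasi-likelihood test (R 4.3.3, robust, TMM, no covariate) was run on the 15521 genes passing filterByExpr (minimum count 10, minimum total 15), with Benjamini-Hochberg adjustment over all of them, called at 0.05. Fold changes put WT/mut on top. Each SE was taken as the size of the log2 value over the root of its F statistic. CPM use TMM-scaled library sizes. The 16 pairs of libraries within a group differed beyond sampling noise (mean chi-square per gene 28.6 to 225). The genes, lists and tests were chosen with earlier results of these data known. Members at an unadjusted p under 0.05 and defining genes are given with every library, and up to 4 genes of lowest p from other lists. Alternatives were DESeq2 1.42.0, limma-voom (limma 3.58.1), other size factors and filters, and libraries left out. Some genes of these lists are not reported here.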

Additional observations from a re-analysis of the deposited data

Results flagged for a closer look

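In 4 of 62 gene and group combinations, 1 library lay far from the others of its group, by the gap to the nearest library relative to the group's range. Chance gives about 1 in 20 such groups. Cd79b was at 44.9 CPM in WT replicate 4, with the next WT library at 26.4 CPM. In WT/mut replicate 9, Bank1 was at 60.2 CPM, with the next WT/mut library at 25.3 CPM. In the same library Ebf1 was at 13.3 CPM, with the next at 6.31 CPM, and Spib at 10.1 CPM, with the next at 4.19 CPM.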

How the results depend on the processing

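No paired analysis was possible because the groups share no replicate number. Over 17 alternatives the number of the 31 genes that passed over all genes was 0 except with DESeq2, which gave 3 (of 499 genes called in all). The median log2 fold change stayed positive, from 0.47 to 0.97 without 1 library. With limma-voom 34 genes were called in all, and 6 higher and 1 lower of the 31 had an unadjusted p under 0.05. Without WT/mut replicates 7 and 9 together 1 gene was called in all and 5 of the 31 were higher at that level. Without WT/mut replicate 9 and WT replicate 1 together, an alternative chosen after seeing the data, these numbers were 5 and 4. Leaving out 1 library gave 2 to 23 calls in all, 4 to 19 higher and 1 to 3 lower genes, and 4 to 14 genes with separate ranges. The shares of all tested genes at that level or with separate ranges were not counted in those fits. Signs turned for Fcer2a, Fcrla, Cd180 and Bank1, which stood at 0.04, 0.29, 0.49 and 0.67 with all libraries. With limma-voom Fcer2a was at -0.18 and Fcrla at -0.059. Leaving out 1 library moved Fcer2a between -0.43 and 0.61 and Fcrla between -0.12 and 0.49. Without WT/mut replicates 7 and 9 Fcer2a was at -0.18 and Cd180 at -0.64. Without WT/mut replicate 9 and WT replicate 1, Bank1 was at -0.013, Fcer2a at -0.78, Cd180 at -0.0030 and Fcrla at -0.37. The cause was not tested. RLE factors, library size alone and both other filters kept every sign of the 31. Cd180, Spib and Nuggc rest on the fewest counts.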
